A study of Mus musculus with 16 samples.

Results

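The genes described here encode 42 nucleolar factors that make ribosomes, a list by name of ribosome assembly and RNA polymerase I genes. The list was chosen with earlier results of these data known. Its counts beside those of all tested genes therefore describe the list and are no independent test of it. All 42 are among the 19108 gene symbols of the files, and all 42 passed the filter on low counts, with at least 84 counts in every library. They were measured by stranded poly(A) RNA sequencing in the quadriceps muscle of 16 C57BL/6 mice aged 6 months. The mice were 4 wild-type (WT) females, 4 WT males, 4 females and 4 males of the genotype ANT1(Tg)/+, written Tg below, which carry an Ant1 transgene in addition to the endogenous gene. Ant1, now named Slc25a4, encodes the main carrier that muscle mitochondria use to send out ATP and take up ADP. Neither the transgene's promoter nor the number of founder lines was given in the sources used here, and no label links a mouse to a littermate. The series title names cytosolic protein homeostasis under mitochondrial stress, and muscle wasting, as its subject.

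A ribosome starts in the nucleolus, where RNA polymerase I copies the ribosomal DNA into a long precursor RNA. Small nucleolar RNPs guide its chemical modification, box C/D particles placing methyl groups and box H/ACA particles turning uridines into pseudouridines. Assembly factors then fold and cut the precursor while ribosomal proteins join, so that a small (40S) and a large (60S) subunit leave the nucleus separately. Production of ribosomes is one of the largest costs of a growing cell, is driven in many cell types by the transcription factor Myc, and contributes to changes in muscle mass. The libraries hold polyadenylated RNA, so ribosomal RNA itself was not analysed here.

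Levels are given as counts per 1000000 (CPM), with library sizes corrected by TMM factors (trimmed mean of M-values), and differences as log2 fold changes with their standard error (SE). A gene was called, and is said to have risen, at an adjusted p under 0.05 in edgeR's quasi-likelihood test, adjusted over all 13666 tested genes. Library totals were 17.4 to 30.7 times 1000000 counts. Slc25a4 was at 2791 to 3918 CPM in WT and 8503 to 11039 CPM in Tg libraries, with no overlap. Ckm, the muscle creatine kinase, was at 19155 to 36901 CPM in all libraries, while the lymphocyte and neutrophil markers summed to at most 1.86 CPM. Of the 10 muscle fibre markers, 3 rose: the myosin gene Myh7 by the most (log2 fold change 4.09, SE 1.26), then Myh1 and Des. The 2 that fell were the fast myosin gene Myh4 (log2 fold change -0.53, SE 0.13) and Tnnt3. None of the adipocyte, endothelial, macrophage, fibroblast or Schwann cell markers was called. Of the lymphocyte and neutrophil list only 1 gene, S100a8, passed the filter on low counts. It rose (2.16, SE 0.38) at a low level, since the whole list summed to at most 1.86 CPM. Among satellite cell markers Chodl fell by 1.07 (SE 0.17) and Cdh15 rose by 0.34 (SE 0.10) on the log2 scale.

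In fat cell transcripts, 3 WT libraries stand apart: Adipoq, the adipocyte hormone adiponectin, was at 187 CPM in WT female 1, 218 CPM in WT female 2 and 323 CPM in WT male 1, against 3.68 to 94.3 CPM in the other 13. Over the 10 adipocyte markers, the summed level ranged from 2471 to 7241 CPM in WT females, 1058 to 7220 CPM in WT males, 2632 to 3603 CPM in Tg females and 1021 to 3792 CPM in Tg males. These libraries bear on the counts below, which are therefore also given without them. WT females 3 and 4 and WT males 2, 3 and 4 then remained, against all Tg mice. How far fewer mice alone lowered the counts was not tested. In whole tissue, a change in the RNA per cell and a change in the number of cells of a type cannot be told apart.

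Sequences upstream of the members are shown first, because a shared control element is a common question for genes that move together. The palindrome CACGTG, the E-box that Myc and related factors bind, was searched in RefSeq promoter windows (build GRCm38.p6) running from 250 bases before to 50 after each annotated start. Of the 42 members, 38 have such a window; Fbl, Npm1, Rrp12 and Bop1 have none in the table. The motif stood in 8 of the 38 (21.1%), against 11.7% of the 10721 tested genes with a window and 7.15% of all 32851 windows. The windows below show each match in capitals with up to 12 bases either side, 5′ to 3′ on the gene's strand.
Utp20, chr10:88826765-88826789, minus strand: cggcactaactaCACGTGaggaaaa
Pes1, chr11:3963965-3963994, plus strand: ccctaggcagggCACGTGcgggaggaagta
Utp18, chr11:93885769-93885798, minus strand: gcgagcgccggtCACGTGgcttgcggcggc
Nop2, chr6:125131811-125131840, plus strand: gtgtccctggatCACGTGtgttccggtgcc
Ltv1, chr10:13193092-13193121, minus strand: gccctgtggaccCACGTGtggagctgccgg
Tsr1, chr11:74898092-74898121, plus strand: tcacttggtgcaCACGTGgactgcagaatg
Pno1, chr11:17211540-17211564, minus strand: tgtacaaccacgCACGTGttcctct
Rrn3, chr16:13780472-13780501, plus strand: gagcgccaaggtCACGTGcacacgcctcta
Rrn3, chr16:13780639-13780668, plus strand: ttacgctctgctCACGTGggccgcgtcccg
The first 5 genes of this list rose in Tg muscle and the last 3 were not called, as described below. In Utp20, Pes1, Ltv1, Tsr1 and Pno1 the match lies after the annotated start, and in Utp18, Nop2 and Rrn3 before it.

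A pair of whole upstream windows of 250 bases is shown, picked with the outcomes known. One gene rose and has no match, and the other has a pair of matches and was not called. A pair picked this way only illustrates sequences, since 5 of the 8 members with a match rose. Whether the motif has a part was not tested. Polr1a encodes the largest subunit of RNA polymerase I, and its window is 47.6% G or C with 13 CpG. Rrn3 encodes the factor that recruits the polymerase to the ribosomal DNA promoter, and its window is 59.6% G or C with 17 CpG.
Polr1a, chr6:71908803-71909052, plus strand: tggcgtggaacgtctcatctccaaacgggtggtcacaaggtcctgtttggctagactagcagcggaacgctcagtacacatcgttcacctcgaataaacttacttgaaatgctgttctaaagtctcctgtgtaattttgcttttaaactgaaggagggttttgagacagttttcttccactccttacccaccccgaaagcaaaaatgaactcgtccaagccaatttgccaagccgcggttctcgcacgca
Rrn3, chr16:13780449-13780698, plus strand: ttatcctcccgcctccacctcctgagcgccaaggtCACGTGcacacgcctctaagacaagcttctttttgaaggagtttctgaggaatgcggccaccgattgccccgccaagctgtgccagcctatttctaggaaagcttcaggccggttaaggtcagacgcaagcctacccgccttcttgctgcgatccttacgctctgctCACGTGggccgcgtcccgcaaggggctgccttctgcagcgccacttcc
The median log2 fold change was 0.24 both in the 8 members with CACGTG and in the 30 without it, and 5 of 8 and 18 of 30 rose. Of all tested genes with a window, 22.2% of those with the motif and 17% of those without it were called higher, with medians of 0.03 and -0.02. The motif TGATGCAA, a composite site that ATF4 binds with C/EBP factors, was searched on both strands and stood in 0 of 38 member windows against 0.718% of tested genes. For so rare a motif, 38 windows are too few for 0 matches to show a lack of it. A match describes letters in a window and not a bound site.

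The nucleolar genes were higher in Tg muscle as a broad, small shift. Averaged over the sexes, 26 of 42 members rose and 0 fell, beside 17.2% of all tested genes called higher and 13.3% called lower. The 0 lower members held in edgeR at an unadjusted p under 0.05 (also 0), in DESeq2 and in limma-voom. The median log2 fold change of the 42 was 0.25, a 1.19-fold difference, against -0.01 over all 13666 tested genes, and 41 of 42 values lay above 0 (48.3% of all genes did). The range ran from -0.01 for Wdr12 to 0.76 for Utp20. Summed over the 42 genes, the level was 1393 ± 107 CPM in WT (SD, n = 8) and 1693 ± 96.4 CPM in Tg libraries (SD, n = 8). The highest WT library, at 1570 CPM, reached above the lowest Tg library, at 1543 CPM. Without the 3 WT libraries rich in Adipoq, an alternative chosen after seeing the data, 15 members rose and 0 fell, the median was 0.15, and 14.8% of all genes were called higher. With all 16 libraries and an adipocyte marker score as a covariate, 27 members rose and 0 fell, the median was 0.24, and 18.1% of all genes were called higher.

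**Figure D1:**
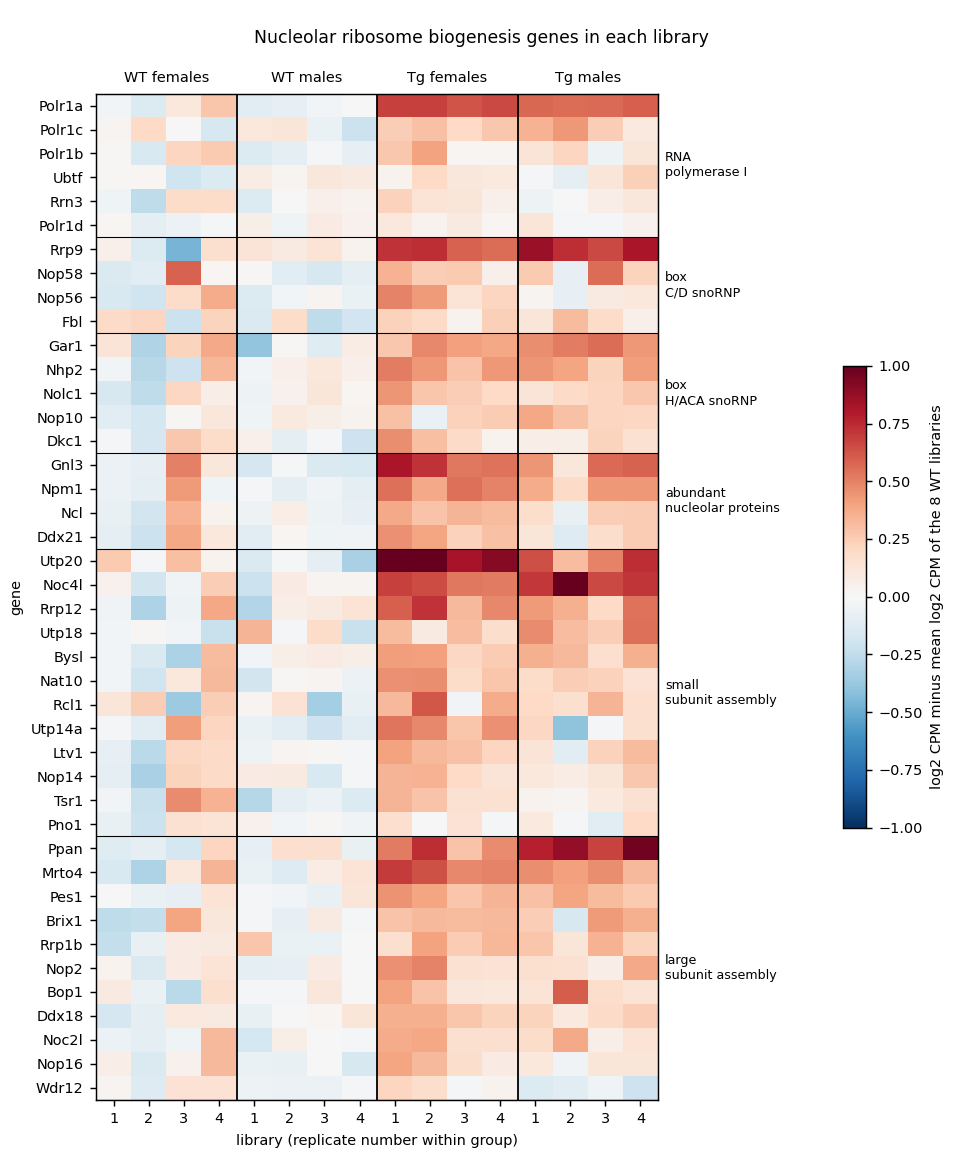
Log2 CPM of each of the 42 genes (rows, by role) in each of the 16 libraries (columns), as the difference from the mean of the 8 WT libraries, on a colour scale from -1 (blue) to 1 (red). Rows of Polr1a, Rrp9, Utp20, Noc4l, Ppan and Pes1 are higher in every Tg than in every WT library, and WT females 3 and 4 are redder than the other WT libraries in many rows.

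The separation of the libraries is another view of which members moved, and it did not always match the calls. Polr1d and Ubtf were separated in females and Dkc1, Rcl1 and Tsr1 in males, but none of these was called. Npm1 was called in females but not separated there. In 6 genes (Noc4l, Pes1, Polr1a, Ppan, Rrp9 and Utp20) all 8 Tg libraries lay above all 8 WT libraries, as in 5.23% of all tested genes; 6 of 42 is 14.3%. Within each sex, 8 members were separated in both (these 6, Gnl3 and Mrto4), or 19% against 6.89% of all genes. In 0 members did every Tg library lie below every WT library of its sex in both sexes, as in 3.93% of all genes. Among females, every Tg mouse lay above every WT mouse in 15 members (35.7%, against 10.8% of all genes), and among males in 21 (50%, against 14%). The 15 genes called without the Adipoq-rich libraries are Polr1a, Polr1c, Rrp9, Nhp2, Gar1, Npm1, Gnl3, Rrp12, Utp20, Utp18, Noc4l, Pes1, Rrp1b, Ppan and Mrto4, with log2 fold changes of 0.22 to 0.73 in that fit. The same 15 were called in each of the 24 alternative analyses. The other 11 (Nop10, Nolc1, Ncl, Ddx21, Nat10, Bysl, Ltv1, Nop2, Bop1, Ddx18 and Noc2l), at 0.22 to 0.30 with all libraries, were at 0.09 to 0.24 without those 3, where none was called (adjusted p 0.05003 to 0.368).

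The question for RNA polymerase I is whether its subunits and initiation factors moved together, and 2 of 6 rose. Polr1a, the catalytic subunit of the enzyme (ENSMUSG00000049553.11, chromosome 6, 71909053 to 71984935, mm10), was at 52.8, 49.1, 58.1 and 65.2 CPM in WT females and 86.3, 86.5, 83.5 and 85 CPM in Tg females. In males it was at 49.7, 51, 52.8 and 53.9 CPM in WT and 80.4, 79.4, 79.7 and 81.4 CPM in Tg. Every Tg mouse was thus above every WT mouse, and the Tg libraries of each sex lay close together. The rise was 1.53-fold (log2 0.61, SE 0.05, adjusted p = 2.22e-07), the smallest p of the 42 genes. Polr1c, a subunit shared with RNA polymerase III, was at 9 ± 0.885 CPM in the WT and 10.8 ± 0.753 CPM in the Tg libraries, a rise of 1.20-fold. Its partner Polr1d, also shared by both enzymes, stood at 54.6 ± 2.25 CPM in WT and 56.4 ± 2.05 CPM in Tg (log2 0.05, SE 0.04). The second largest subunit, Polr1b, was at 19.9 ± 2.27 and 21.9 ± 2.35 CPM (0.14, SE 0.07), so the difference was within the spread of the libraries. Ubtf, which opens the ribosomal DNA and binds its promoter, differed by 0.09 (SE 0.05) and Rrn3 by 0.08 (SE 0.06), and neither was called. The RNA polymerase I group thus held 1 gene with a rise of about the size of the leading assembly factors and 4 with values of at most 0.14.

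In the box C/D particle, 1 of 4 members rose. Rrp9, a protein specific to the U3 particle that helps cut the precursor (chromosome 9, 106475963 to 106485424), was at 12.7, 11.2, 8.91 and 13.7 CPM in WT females and 20.3, 20.5, 18.5 and 18.1 CPM in Tg females. In males the values were 13.4, 13.1, 13.5 and 12.6 CPM in WT and 22.4, 20.5, 19.4 and 21.6 CPM in Tg. No Tg library overlapped a WT library, and the rise was 1.63-fold (0.70, SE 0.07, adjusted p = 3.18e-06). Its exons overlap those of Parp3 on the other strand, whose own difference was 0.04 (SE 0.05). The core proteins of the particle were not called. Nop56, which scaffolds it, was at 25.5, 24.6, 32.1 and 36.7 CPM in WT females and 39.9, 38, 31.2 and 32.8 CPM in Tg females. In males Nop56 was at 25.7, 27.8, 28.8 and 27.1 CPM in WT and 28.8, 26.7, 30.1 and 30.4 CPM in Tg. The genotypes overlapped in both sexes, in females through WT females 3 and 4 and in males with Tg male 2 below 3 of the WT males, and the difference was 0.17 (SE 0.08, adjusted p = 0.131). Its relative Nop58 differed by 0.23 (SE 0.11), and Fbl, the methyltransferase fibrillarin, by 0.16 (SE 0.08).

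In the box H/ACA group, 4 of 5 members rose. Gar1, which helps release the modified RNA, was at 5.9, 4.37, 6.29 and 7 CPM in WT females and 6.5, 7.52, 7.16 and 7.05 CPM in Tg females. Male values were 4.1, 5.43, 4.95 and 5.68 CPM in WT and 7.45, 7.7, 7.94 and 7.27 CPM in Tg. The males did not overlap, whereas in females the highest WT library passed the lowest Tg library, and the averaged rise was 1.34-fold (0.42, SE 0.09, adjusted p = 0.00272). Nhp2, an RNA-binding core protein, rose from 13.9 ± 1.82 to 18.2 ± 1.14 CPM (0.38, SE 0.08). Its exons overlap those of Rmnd5b, which also rose (0.26, SE 0.06), and reads of the pair may not have been told apart. Nop10, the smallest core protein, rose from 31.1 ± 2.12 to 36.5 ± 3.15 CPM (0.23, SE 0.06; 0.15 and not called without the Adipoq-rich libraries). Dkc1, dyskerin, the pseudouridine synthase itself, was not called (0.18, SE 0.07, adjusted p = 0.0693). Nolc1, a chaperone that accompanies both classes of particle, was at 30.7, 28.7, 39.6 and 35.9 CPM in WT females and 46.6, 41.6, 40.7 and 39.4 CPM in Tg females. In males Nolc1 was at 33, 35.3, 37.3 and 34.8 CPM in WT and 37.5, 39.1, 39.8 and 41.2 CPM in Tg. Only WT female 3 entered the Tg range of its sex; the rise was 1.18-fold (0.24, SE 0.06, adjusted p = 0.00849), or 0.13 (SE 0.06, not called) without the 3 libraries.

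**Figure D2:**
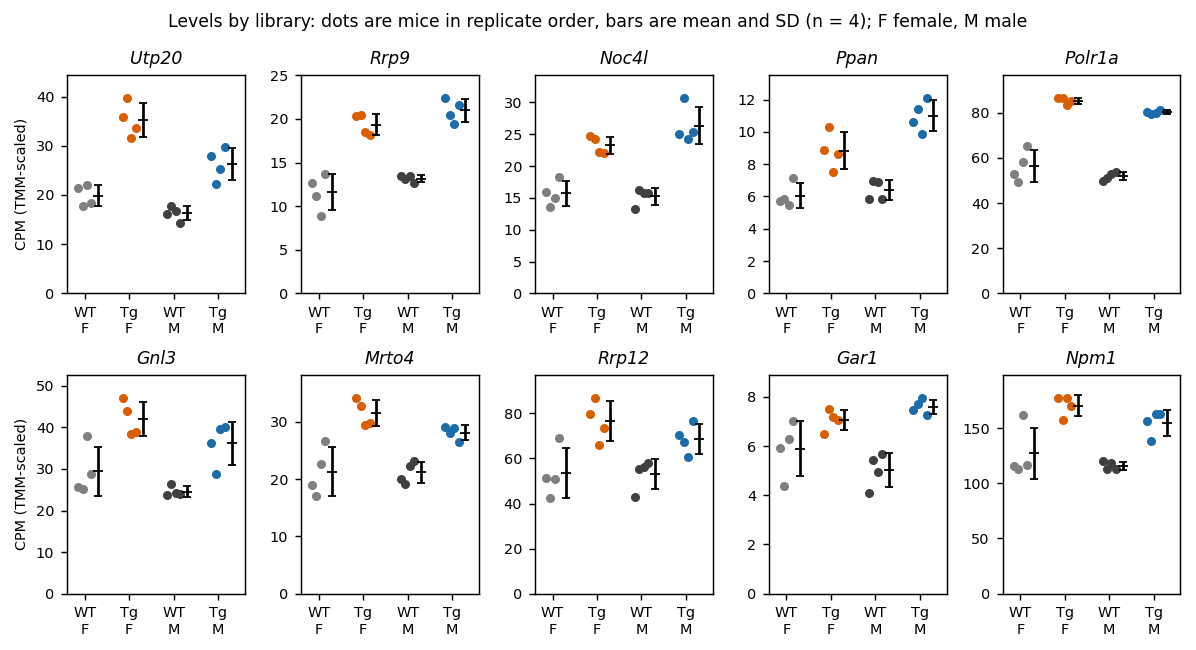
CPM (TMM-scaled, axis from 0) of the 10 called members with the largest log2 fold change, one dot per mouse, with the mean and SD of each group of 4 beside the dots. WT and Tg dots are separated in both sexes for Utp20, Rrp9, Noc4l, Ppan, Polr1a, Gnl3 and Mrto4, whereas 1 WT female reaches the Tg females for Rrp12, Gar1 and Npm1.

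All 4 genes of the abundant nucleolar proteins rose. Npm1, nucleophosmin, a histone and ribosomal protein chaperone (chromosome 11, 33152287 to 33163206), had the highest level of the 42 genes per exon length, at 45.6 ± 6.19 CPM per 1000 bases in WT and 61 ± 4.83 in Tg (SD, n = 8 each). It was at 116, 113, 162 and 117 CPM in WT females and 177, 157, 177 and 170 CPM in Tg females. In males Npm1 was at 120, 113, 118 and 113 CPM in WT and 156, 138, 163 and 163 CPM in Tg. All WT libraries but 1 fell within 113 to 120 CPM, WT female 3 lay apart at 162 CPM, and the rise was 1.34-fold (0.42, SE 0.07, adjusted p = 0.000298). Npm1 was the 1 member with fractional counts, in 6 of 16 libraries; it has processed copies elsewhere in the genome, so its counts are less certain.

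Gnl3, nucleostemin, a GTPase of the nucleolus, was at 25.7, 25.2, 37.9 and 28.9 CPM in WT females and 47, 44, 38.5 and 38.8 CPM in Tg females. In males it was at 23.8, 26.4, 24.1 and 24 CPM in WT and 36.3, 28.8, 39.6 and 40.1 CPM in Tg. The sexes were each separated, although WT female 3 came within 1 CPM of the lowest Tg female, and the rise was 1.45-fold (0.54, SE 0.09, adjusted p = 0.000279). Its exons overlap those of Pbrm1 on the other strand, at -0.12 (SE 0.07). Ncl, nucleolin, which binds the ribosomal DNA and the precursor RNA, was at 186, 173, 250 and 201 CPM in WT females and 255, 239, 248 and 244 CPM in Tg females. Male Ncl values were 189, 206, 189 and 185 CPM in WT and 222, 186, 233 and 234 CPM in Tg. WT female 3 and Tg male 2 each lay within the range of the other genotype; the rise was 1.18-fold (0.23, SE 0.07, adjusted p = 0.0206), and it was not called without the Adipoq-rich libraries (0.13, SE 0.07). Ddx21, an RNA helicase that links polymerase I transcription and processing, was called at 0.22 (SE 0.08, adjusted p = 0.0444) but in 15 of 24 alternatives it was not.

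Of 12 factors of the small subunit, 7 rose. Utp20, a large scaffold of the processome (chromosome 10, 88746607 to 88826804), had the largest log2 fold change of the 42. It was at 21.4, 17.7, 22 and 18.3 CPM in WT females and 35.8, 39.7, 31.6 and 33.7 CPM in Tg females. In males Utp20 was at 16.2, 17.7, 16.8 and 14.3 CPM in WT and 27.9, 22.2, 25.2 and 29.8 CPM in Tg. The lowest Tg library, at 22.2 CPM, was just above the highest WT library, at 22 CPM, and the rise was 1.69-fold (0.76, SE 0.08, adjusted p = 1.49e-06). Noc4l, which joins Nop14 in early 40S assembly, was at 15.9, 13.6, 15 and 18.3 CPM in WT females and 24.7, 24.2, 22.2 and 22.1 CPM in Tg females. The male values of Noc4l were 13.3, 16.3, 15.7 and 15.7 CPM in WT and 25.1, 30.7, 24.3 and 25.3 CPM in Tg. All Tg mice were above all WT mice, with a rise of 1.60-fold (0.68, SE 0.07, adjusted p = 2.72e-06), while its partner Nop14 was not called (0.19, SE 0.07, adjusted p = 0.0653).

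Rrp12, which helps both subunits through nuclear pores, had the highest CPM of the small subunit group, with 51.4, 42.5, 50.9 and 69 CPM in WT females and 79.6, 86.7, 66 and 73.6 CPM in Tg females. In males Rrp12 was at 43.1, 55.3, 56.1 and 57.8 CPM in WT and 70.6, 67.3, 60.6 and 76.6 CPM in Tg. WT female 4 exceeded the lowest Tg female, the males did not overlap, and the rise was 1.36-fold (0.44, SE 0.09, adjusted p = 0.00198). Utp18, another processome protein, rose 1.23-fold from 6.04 ± 0.817 CPM, and Bysl, bystin, which acts in late 40S steps, 1.23-fold from 27.9 ± 3.56 CPM. Nat10, which acetylates 18S ribosomal RNA, rose 1.20-fold and Ltv1, a chaperone of the 40S head, 1.17-fold. Bysl, Nat10 and Ltv1 were not called without the Adipoq-rich libraries, and Ltv1 was lost in 8 of 24 alternatives. Of the 5 that were not called, Utp14a was at 0.22 (SE 0.09), Rcl1 at 0.26 (SE 0.11), Tsr1 at 0.14 (SE 0.08) and Pno1, a late 40S factor, at 0.06 (SE 0.06). Pno1 stood at 28.9 ± 2.33 CPM per 1000 bases of exon in WT, next to Npm1 in the order of levels per length and not apart from Nop10, at 28.1 ± 1.92.

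Of 11 factors of the large subunit, 8 rose. Ppan, the mouse form of the yeast assembly factor Ssf1 (chromosome 9, 20888175 to 20892178), was at 5.7, 5.83, 5.49 and 7.17 CPM in WT females and 8.86, 10.3, 7.54 and 8.61 CPM in Tg females. In males Ppan was at 5.84, 6.95, 6.92 and 5.87 CPM in WT and 10.6, 11.4, 9.87 and 12.1 CPM in Tg. No Tg library fell into the WT range, and the rise was 1.58-fold (0.66, SE 0.08, adjusted p = 2.16e-05). Mrto4, a placeholder for the ribosomal stalk protein, was at 18.9, 17, 22.7 and 26.6 CPM in WT females and 34.1, 32.7, 29.4 and 29.7 CPM in Tg females. Male Mrto4 levels were 20.1, 19.2, 22.2 and 23.2 CPM in WT and 29.1, 28, 29 and 26.4 CPM in Tg. Each sex was separated, and the lowest Tg male, at 26.4 CPM, was just below WT female 4, with a rise of 1.40-fold (0.49, SE 0.08, adjusted p = 0.000234).

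The PeBoW complex, which Pes1, Bop1 and Wdr12 form to mature the 28S and 5.8S RNA, did not move evenly. Pes1 rose from 35.9 ± 2.15 to 45.4 ± 2.09 CPM (SD, n = 8 each), with all 8 Tg above all 8 WT libraries (0.34, SE 0.05, adjusted p = 5.18e-05). Bop1 rose from 27.6 ± 2.47 to 32.8 ± 4.34 CPM (0.25, SE 0.08, adjusted p = 0.0285), but was not called in 7 of 24 alternatives, among them those without WT female 3 or Tg male 2. Wdr12 was at 23.6 ± 1.68 CPM in WT and 23.5 ± 2.45 CPM in Tg (-0.01, SE 0.05, adjusted p = 0.899). The difference between the 3 genes' effects was not tested.

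Noc2l, an early large subunit factor and the most abundant of the group by CPM, was at 45, 44, 45.3 and 58.7 CPM in WT females and 60.4, 61.2, 52.2 and 52.4 CPM in Tg females. Male Noc2l values were 41.5, 48.7, 46.6 and 46.3 CPM in WT and 53, 60.9, 49.1 and 51.4 CPM in Tg. The males did not overlap, WT female 4 lay within the range of the Tg females, and the rise was 1.17-fold (0.23, SE 0.07, adjusted p = 0.0211; 0.13 and not called without the Adipoq-rich libraries). Nop2, the 28S cytosine methyltransferase, rose 1.19-fold, Ddx18, a helicase, 1.18-fold and Rrp1b 1.20-fold, from 7.6 ± 0.823 CPM. Brix1 was at 0.26 (SE 0.10, adjusted p = 0.0503) and Nop16 at 0.16 (SE 0.07); neither was called.

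The sexes were compared directly. In females 16 of 42 members rose and 0 fell (10.1% of all genes were called higher and 7.57% lower), and all 42 log2 fold changes lay above 0, as in 46.5% of all genes. In males 11 rose and 0 fell (9.84% of all genes higher and 8.39% lower), and 40 of 42 values lay above 0, as in 54.2% of all genes. The 10 genes called in both were Polr1a, Rrp9, Nhp2, Npm1, Gnl3, Utp20, Noc4l, Pes1, Ppan and Mrto4. The counts of each sex rest on a spread estimated over all groups together. With each sex fitted alone, 10 members were called higher in females and 16 in males, beside 6.53% and 11.2% of all genes. The order of the sexes by number of calls thus depended on the fit. The test of the difference between the sexes' effects called 0 of 42 in edgeR, DESeq2 and limma-voom, and 0 at an unadjusted p under 0.05 in edgeR; over all genes it called 0% higher and 0.00732% lower in males. Its largest value was 0.33 (SE 0.19) for Gar1, at 1.20-fold in females and 1.50-fold in males, and its lowest -0.20 (SE 0.11) for Ubtf. The median log2 fold change was 0.28 in females and 0.24 in males, against -0.03 and 0.03 over all genes. Without the Adipoq-rich libraries the medians were 0.15 and 0.20, against 0.01 and 0.02 over all genes. In that fit 6 and 10 members were called higher, beside 7.57% and 8.05% of all genes. Its only WT females were WT females 3 and 4, in which the median deviation of these genes was the highest of the group. With the adipocyte covariate 15 and 13 were called higher, beside 9.6% and 10.6%. In WT mice, male minus female, 0 of 42 were called in edgeR, DESeq2 and limma-voom (2 at an unadjusted p under 0.05 in edgeR; 2.01% of all genes were called higher and 1.65% lower). Scaling by total counts alone moved the median of all genes in males by 0.11, and 25 members were then called higher in males, beside 14.8% of all genes, with a median of 0.35 against 0.13 over all genes.

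**Figure D3:**
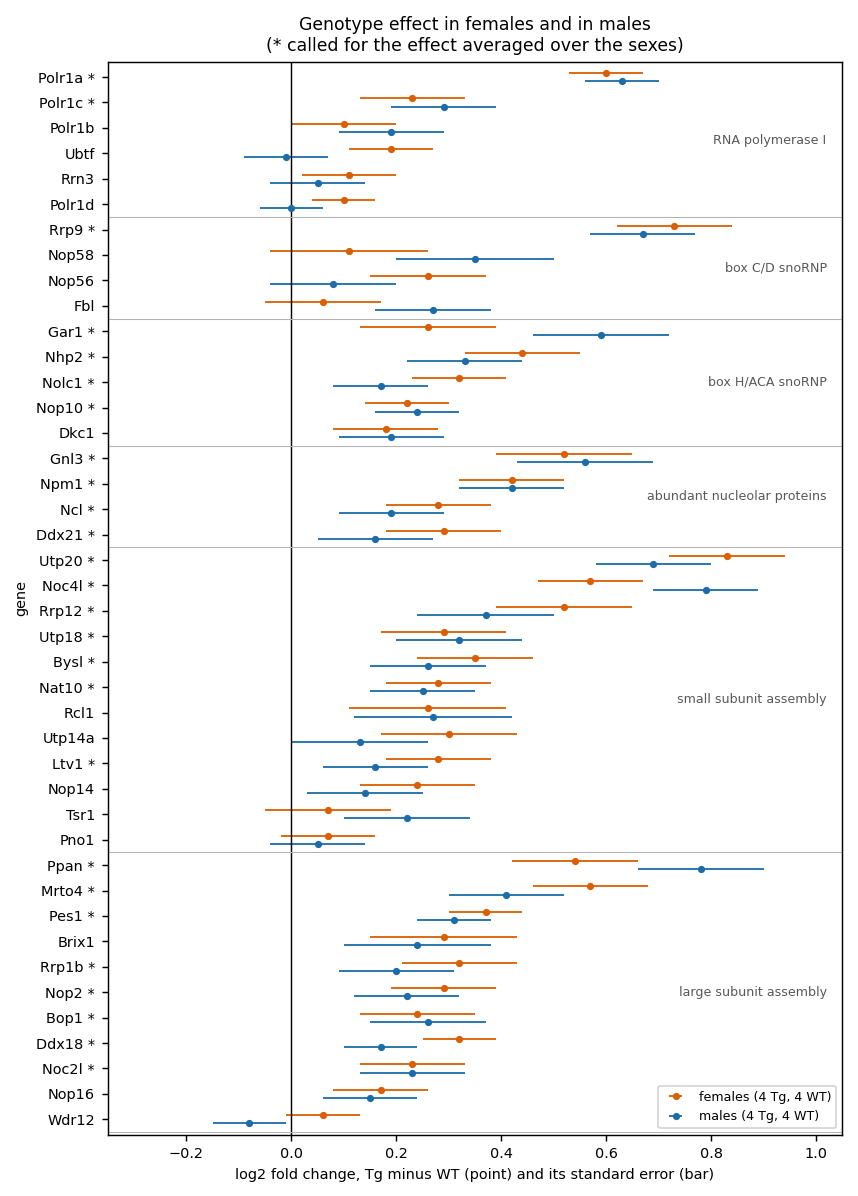
Log2 fold change of Tg against WT for each of the 42 genes (rows, by role), in females (orange) and males (blue), with standard errors as bars; a star marks genes called for the effect averaged over the sexes. All female points and all but 2 male points (Ubtf and Wdr12) lie at or above 0, and the sexes' bars overlap or nearly touch in most rows.

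WT females varied more than the other groups in these genes. Their summed level over the 42 genes ran from 1247 to 1570 CPM, against 1327 to 1386 CPM in WT males, 1694 to 1854 CPM in Tg females and 1543 to 1697 CPM in Tg males. Deviations were taken from the group mean in log2 CPM. The median deviation of the 42 was -0.07 and -0.20 in WT females 1 and 2. It was 0.11 and 0.14 in WT females 3 and 4. The median of all tested genes deviated by at most 0.01, but the scaling of the libraries holds it near 0. WT female 4 was above its group mean in 35 of 42 genes, led by Rrp12 (0.39) and Nhp2 (0.37), and WT female 3 in 27, led by Nop58 (0.49) and Brix1 (0.39). The summed adipocyte markers of WT females 1 to 4 were 7241, 6655, 4471 and 2471 CPM, and their macrophage markers 75.7, 133, 149 and 44.6 CPM. The part of these cells in the spread was not tested.

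Other genes of the pathway were counted by role, from lists also chosen with earlier results of these data known. Of 158 tested genes from 5 lists, 64 (40.5%) rose and 4 (2.53%) fell, with a median of 0.17, beside 17.2% and 13.3% of all tested genes. Without the Adipoq-rich libraries 36 rose and 7 fell, beside 2049 higher and 2080 lower of all 13875 genes tested in that fit. The median was 0.11 against 0.01 over all genes. By list, 2 of 16 polymerase I, 11 of 47 small subunit and 16 of 57 large subunit genes rose in that fit. So did 4 of 24 snoRNP and exosome genes and 3 of 14 Myc network genes, beside 14.8% of all genes. Those that fell were 3 small subunit, 1 large subunit and 3 Myc network genes. That fit also holds fewer WT mice, and the part of this in the smaller numbers of risen genes was not tested. Of the genes named next, all but Cd3eap, Twistnb and Exosc7 were also called in that fit, in the same direction. Among 16 further RNA polymerase I subunits and initiation factors, 5 rose and 0 fell: Polr2e, a subunit common to all 3 nuclear polymerases, rose 1.49-fold and Polr1e, of the polymerase I dimer, 1.45-fold, with Cd3eap and Twistnb each at 1.16-fold. Among 47 small subunit factors, 20 rose and 1 fell: Pwp2, of the U3-binding UTP-B complex, rose from 22.7 ± 2.62 to 33.8 ± 2.11 CPM, Wdr46 1.51-fold, Nob1, the nuclease that makes the end of 18S RNA, 1.38-fold and Fcf1 1.30-fold. The GTPase gene Bms1 fell, from 51.1 ± 5.08 to 41.1 ± 2.79 CPM (SD, n = 8 each). Among 57 large subunit factors, 27 rose and 0 fell: the helicase gene Ddx51 rose from 10.5 ± 1.39 to 18.2 ± 1.65 CPM (0.80, SE 0.08, adjusted p = 1.45e-06), Rrs1, which brings in the 5S particle, 1.44-fold, Nvl 1.37-fold and Mybbp1a 1.34-fold. Of 24 genes of snoRNP assembly and the RNA exosome, 9 rose and 0 fell, with Shq1, a dyskerin chaperone, at 1.73-fold and the exosome subunits Exosc5, Exosc1 and Exosc7 at 1.37-, 1.29- and 1.20-fold.

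The list of the Myc network and nucleolar p53 control did not move one way, with 3 of 14 tested genes higher and 3 lower and a median of 0.01. Myc was at 3.82 ± 1.21 CPM in WT and 11.9 ± 1.72 CPM in Tg (SD, n = 8 each), the highest WT library at 5.92 and the lowest Tg library at 9.16 CPM, a rise of 3.16-fold (1.66, SE 0.15, adjusted p = 6.49e-07; 1.54, SE 0.15 without the Adipoq-rich libraries). Mlxip, a partner of the Max-like protein Mlx, fell from 160 ± 15.9 to 103 ± 8.3 CPM, and Mxi1, a Myc antagonist, from 55.4 ± 3.4 to 46.8 ± 5.01 CPM. Mdm2, which degrades p53, fell by 0.25 on the log2 scale (SE 0.07), and Rpl11, a ribosomal protein that binds Mdm2, rose 1.24-fold. Of 10 cell cycle markers, 6 passed the filter, and 0 of these were called higher in edgeR and 2 lower. These were Mki67 (-1.09, SE 0.36) and Top2a (-1.47, SE 0.33), both at low levels and with overlap between the genotypes. Mki67 was at 0.496 to 2.29 CPM in WT and 0.0502 to 0.94 CPM in Tg. Top2a was at 0.276 to 1.55 CPM in WT and 0.147 to 0.47 CPM in Tg.

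**Figure D4:**
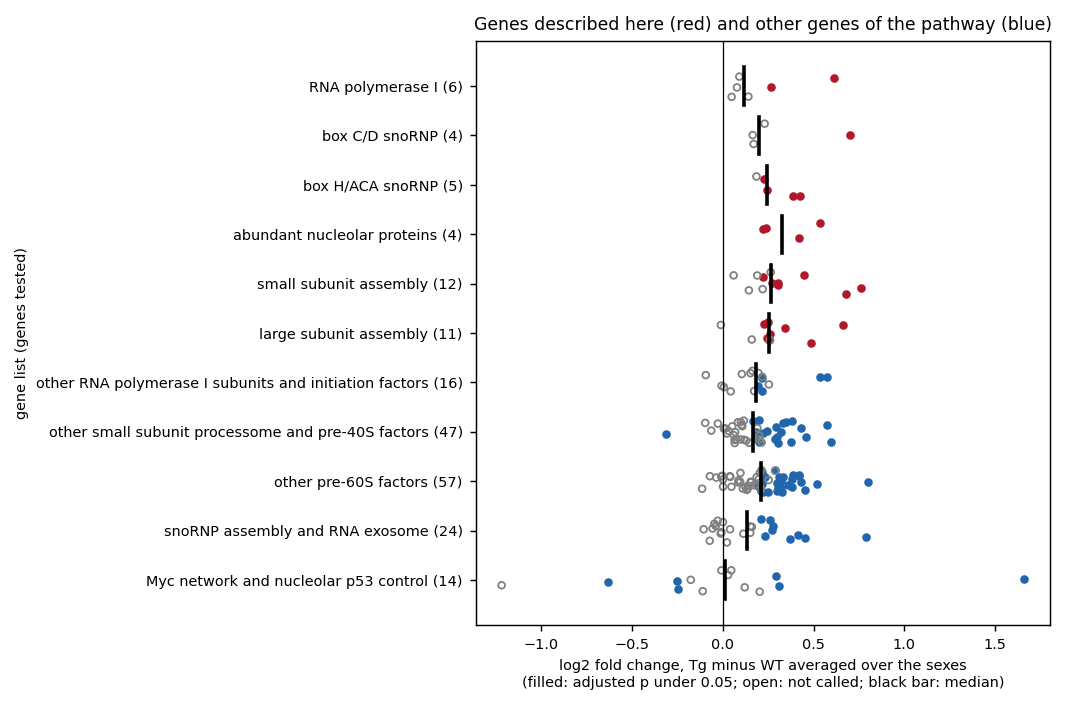
Log2 fold change, Tg against WT averaged over the sexes, of each tested gene (points) in the 6 roles of the 42 genes (red) and in 5 further lists of the pathway (blue); filled points were called, open points were not, and black bars are medians. Called points of all lists but the last lie to the right of 0, apart from Bms1 at -0.31, and Myc is the point farthest to the right, at 1.66.

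Genes of the list lie on 17 chromosomes, with 2 (Dkc1 and Utp14a) on the X. Of the 42, 5 (Nop56, Nop58, Dkc1, Ncl and Tsr1) hold 8 annotated snoRNA genes within their introns, and of these hosts Ncl rose. The exons of 13 members overlap those of another listed gene on the opposite strand, and 7 of these 13 rose. Of the overlapping partners, 1 (Rmnd5b) was called higher and 0 lower by edgeR. The kit marks strand, but the sources used here do not say whether the counting used it, so values of these 13 may hold reads of their neighbours.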

How the data were processed

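Quadriceps RNA of 16 mice was sequenced from stranded poly(A) libraries. The deposited values were treated as estimated counts per gene symbol, since they are partly fractional and unscaled; 95.02% of nonzero values were whole within 0.01 or 1e-05 of their size. Per the submitters' processing notes, the authors used bcl2fastq, cutadapt 1.2.1, TopHat2, Bowtie2 and build mm10 before these estimated counts were deposited; the counting program and its annotation were not named there.

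Values were rounded and filtered with filterByExpr (minimum count 10, minimum total 15), leaving 13666 genes, and fitted in R 4.3.3 with edgeR 4.0.16: TMM factors (0.887 to 1.10), 1 mean per group of sex and genotype, robust quasi-likelihood F tests, two-sided, Benjamini-Hochberg adjustment, threshold 0.05. The biological coefficient of variation was 0.201. SE is the log2 fold change over the square root of F. The fit was tested on simulated data. DESeq2 1.42.0 and limma 3.58.1 served as alternatives, beside other scalings, filters, an adipocyte covariate and left-out libraries. Positions and exon lengths (union of exons) are of GENCODE M21, build mm10.

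The members and gene lists were chosen with earlier results of these data known. Values of every library are printed for the 10 called members with the largest change and the highest member by CPM of each role; of other lists, up to 4 called genes of smallest adjusted p. Bms1, Mdm2 and the marker genes were named after their values were seen. The upstream windows of Polr1a and Rrn3 were also picked with the outcomes known. The labels give 4 samples per sex and genotype, taken here as 4 mice. Each p-value sets a difference against the spread between mice within groups. That spread was estimated over all groups together, with information shared across genes.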

Additional observations from a re-analysis of the deposited data

Results flagged for a closer look

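In 9 of 168 groups of 4 libraries (42 genes in 4 groups) 1 library lay apart from the other 3 by Dixon's criterion, which flags about 1 in 20 groups by chance. Of the 9, 3 concern Tg male 2: Bop1 was at 41.9 CPM against 30.3 to 31 CPM in the other Tg males, Noc4l at 30.7 against 24.3 to 25.3 CPM, and Nop16 at 17.4 against 19.2 to 19.4 CPM. WT female 3 was high for Npm1 (162 against 113 to 117 CPM) and low for Fbl (11.8 against 15.7 to 16 CPM). WT female 4 was high for Noc2l, at 58.7 against 44 to 45.3 CPM. Among WT males, Rrp12 was low in replicate 1 (43.1 against 55.3 to 57.8 CPM), Gnl3 high in replicate 2 (26.4 against 23.8 to 24.1 CPM) and Bop1 high in replicate 3 (29.8 against 27.2 to 27.4 CPM).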

How the results depend on the processing

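No paired analysis was possible because the labels carry no replicate or litter number; the numbers printed here follow the order of deposit and only name the libraries. Leaving out 1 library at a time, 22 to 30 members were called higher averaged over the sexes, beside 14.6% to 18.3% of all genes. In females 12 to 22 were called higher (7.18% to 12.3% of all genes) and in males 9 to 16 (7.06% to 11.1%). In these fits 0 were called lower in Tg or for the difference between the sexes, and the averaged median was 0.22 to 0.27. For the sex difference in WT 0 to 1 were called, the 1 being Tsr1 without WT female 2 (-0.42, adjusted p = 0.0279 in edgeR). Without the 3 Adipoq-rich libraries 15 were called averaged, 6 in females and 1 (Tsr1, -0.49) for the sex difference in WT, the averaged median was 0.15, and the values of Rrn3 (-0.04), Pno1 (-0.02) and Tsr1 (-0.02) turned below 0. In fits of one sex alone 10 were called in females (6.53% of all genes were called higher) and 16 in males (11.2%); with total counts alone 36 were called averaged (21.9%) and 25 in males (14.8%), and with the adipocyte covariate 1 (Tsr1, -0.40) was called for the sex difference in WT. Wdr12, near 0, was at 0.06 with total counts and at 0.00 to 0.01 without WT female 3 (0.01), Tg female 3 (0.01), WT female 4 (0.01), Tg female 4 (0.00) or Tg male 4 (0.00). Of all tested genes called, 56.3% were higher, 50.8% with relative log expression factors and 70.9% with total counts. The causes were not tested. The planned exclusion of libraries over 3 times the median of summed adipocyte markers left out 0 libraries and gave no value. Of the 26 called members, 15 were called in all 24 alternatives; of the other 16, 12 were called in at least 1, and Polr1d, Ubtf, Pno1 and Wdr12 in none. Every member had at least 84 counts in every library.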
